A study of Mus musculus with 3 samples.

Results

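Early in a culture that turns mouse testis stroma towards Leydig cells, a small number of cells held RNA of at least 1 of 4 genes, most often apolipoprotein E, and little or no smooth muscle actin RNA. These cells were chosen by their own counts of 5 genes. The unique molecular identifiers (UMIs) of Gpx3, Selenbp1, Lbp and Apoe had to sum to at least 3 in a cell and to at least 10 per 10000 UMIs of that cell, and Acta2 had to stay at or below 5 per 10000. Of 5151 cells of days 4 and 7, 177 met the rule and are called members. They were 51 of 2980 cells on day 4 (1.71%, exact 95% Clopper-Pearson interval 1.28 to 2.24) and 126 of 2171 on day 7 (5.80%, 4.86 to 6.87). On day 14, 706 of 973 cells met the same rule (72.6%, 69.6 to 75.3), so that 6124 cells entered in all. Of the 973 day 14 cells, 934 (96.0%) met the Acta2 limit whatever their sum. Without Apoe in the sum, 282 of the 706 still met the rule. Intervals here and in what follows cover counting error only.

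The study sorted Sca1+/cKit- cells from testes of adult C57BL/6 males of 8 to 12 weeks and followed their differentiation towards Leydig cells by Drop-seq, which captures the RNA of single cells on barcoded beads. The sorted cells were plated on Matrigel at 100000 per well and recovered for 18 hours. They were expanded for 3 days in medium with PdgfAA, PdgfBB and Fgf2 at 10 ng/ml each and with 0.5 µM of the Hedgehog agonist SAG. The differentiation medium that followed held the same factors with 5 mM LiCl2 and 10 µM of the Notch pathway inhibitor DAPT. The labels give the same protocol for all days and do not state which medium the day 4 cells were in. The timing of the culture puts the change of medium at about day 4. The paper describes day 4 cells as exposed to expansion medium, and day 7 cells as 3 days past the change. Day 4 cells may thus not have met LiCl2 and DAPT, as later cells had. Days 4, 7 and 14 were 1 library each and shared strain and sort. A difference between days cannot be told apart from one between media or libraries. No test across replicates was possible, and no p-value is given. Members and other cells of a day come from the same library.

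Leydig cells lie between the seminiferous tubules and make testosterone from cholesterol. Cyp11a1 starts that path in mitochondria, to which the Star protein brings cholesterol. Stromal cells in culture can take on a myofibroblast state, with actin stress fibres, smooth muscle actin and collagen. The 4 genes summed by the rule encode secreted or cytosolic proteins. Gpx3 (chr11:54902453-54910377, build GRCm38) is a secreted selenium enzyme that reduces peroxides, and Selenbp1 (chr3:94933056-94944758) is a selenium-binding methanethiol oxidase. Lbp (chr2:158306493-158332852) binds bacterial lipopolysaccharide in plasma, and Apoe (chr7:19696109-19699188) carries lipids out of cells. Acta2 (chr19:34241090-34255590) encodes smooth muscle actin. All 5 are annotated as protein-coding genes in GENCODE M21.

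By the median, members held somewhat more UMIs than the cells around them. Their median was 3347 UMIs on day 4 against 2876 in the other cells, and 4154 against 3162 on day 7. The upper quartiles went the other way, at 4857 against 5790 on day 4 and 7108 against 7241 on day 7. UMIs summed over members came to 193017 on day 4 and 652020 on day 7, against 12484093 and 10975420 in the other cells. The median share of mitochondrial UMIs was 1.42% in day 4 members against 1.19%, and 1.52% against 1.37% on day 7. Many barcodes were not independent. Of the 2980 day 4 barcodes, 1304 (43.8%) shared their first 11 of 12 bases with another barcode of the library, mostly in sets of 4 that differ in the last base, and so did 1026 of 2171 on day 7 (47.3%) and 504 of 973 on day 14 (51.8%). Such a set can stand for 1 bead, which makes every interval given here too narrow. Of the members, 14 of 51 and 31 of 126 lay in such sets. With each set summed to 1 cell before the rule was applied, 42 of 2027 cells (2.07%) met it on day 4 and 108 of 1414 (7.64%) on day 7. Mmp2 had a log2 ratio of 1.67 on day 4 as deposited and 1.78 after summing, and 1.66 and 1.66 on day 7. The median over contractile genes was −1.69 and −1.60 on day 4, and −1.60 and −1.56 on day 7. No barcode occurred on more than 1 day.

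The genes of the rule are given as a description of who was chosen. The summed level had a median of 22.9 per 10000 UMIs in day 4 members (10.3 to 95.5) and 24.7 in day 7 members (10.1 to 159), and a median of 0 in the other cells of either day. Apoe carried most members. It was seen in 46 of 51 on day 4 and in 121 of 126 on day 7, and 15 and 18 members showed no other gene of the sum. Without Apoe in the sum, 24 and 56 of the members still met the rule. Gpx3 was seen in 25 and 90 members, Selenbp1 in 25 and 47, and Lbp in 7 and 38. On day 4 members held 18 cells with 1 of the 4 genes seen, 18 with 2, 11 with 3 and 4 with all 4, and the day 7 numbers were 22, 50, 42 and 12. The day 4 level of Gpx3 leaned on 1 cell, which held 200 of its 297 member UMIs (67.3%). Gpx3 stood at 1539 CPM (UMIs scaled to a total of 1000000) in day 4 members with that cell and at 567 CPM without it. On day 7 no cell held more than 49 of 702 Gpx3 UMIs. Acta2 had 0 UMIs in 37 of 51 and 86 of 126 members. In summed counts it stood at 93.3 against 3209 CPM in members and others on day 4 and at 87.4 against 2994 CPM on day 7.

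Some cells lay close to the limits. Exactly 3 UMIs in the sum brought in 7 members on either day, and 8 and 23 cells missed the rule only for having 2. Between 10 and 12 per 10000 lay 3 and 13 members, and 9 and 6 cells with 8 to 10 per 10000 stayed outside. Cells that missed only the Acta2 limit numbered 19 on day 4 and 50 on day 7, of which 2 and 15 were between 5 and 10 per 10000. Cells at or below the Acta2 limit, whatever their sum, made up 527 of 2980 (17.7%) on day 4 and 544 of 2171 (25.1%) on day 7. Members were thus 9.68% and 23.2% of the Acta2-low cells.

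**Figure D1:**
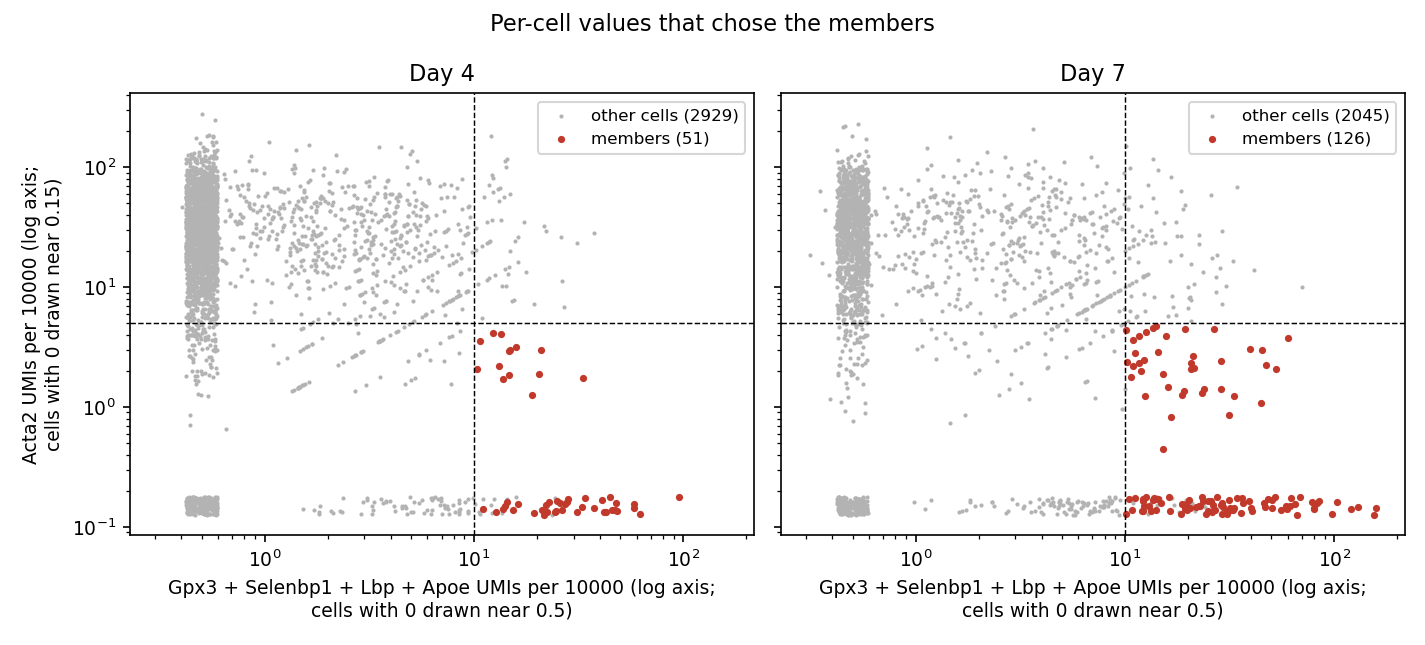
Each point is a cell of day 4 (left) or day 7 (right), with the summed UMIs of Gpx3, Selenbp1, Lbp and Apoe per 10000 on the horizontal log axis and Acta2 per 10000 on the vertical log axis. Red points are the 51 and 126 members, grey points the 2929 and 2045 other cells, dashed lines the limits at 10 and 5 per 10000, and cells with 0 UMIs are drawn with small scatter near 0.5 or 0.15.

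A comparison with all other cells of the same day asked what else set members apart. Genes with at least 20 UMIs over both groups were compared, and a ratio of 2 or more in either direction was called past 2-fold. On day 4, 1508 of 11695 genes (12.9%) were at least 2-fold higher in members and 2815 (24.1%) at least 2-fold lower, and 714 of 11745 (6.08%) and 1106 (9.42%) were so on day 7. With 193017 UMIs behind all day 4 members, many of these ratios rest on a few UMIs. Higher and lower genes numbered 729 and 528 on day 4, and lower genes 498 on day 7, when the counting interval of the ratio also had to leave out 1. Of 11309 genes compared on both days, 319 were higher on both, which is 22.7% of those higher on day 4 and 49.5% of those higher on day 7, and 539 were lower on both. On both days 1926 of these genes had 100 CPM or more in members or others. Of them, 70 were higher on both days, which is 51.5% of those higher on day 4 and 67.3% of those higher on day 7, and 73 were lower on both. A comparison with only those other cells that met the Acta2 limit was added after the data were seen, and its values are called those against Acta2-low others. There 514 of 7986 genes (6.44%) were at least 2-fold higher in day 4 members and 1301 (16.3%) lower, and 242 of 8635 (2.80%) higher and 438 (5.07%) lower on day 7. List counts in that comparison stand beside these shares.

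Mmp2 (gelatinase A, chr8:92827291-92853420), which cleaves denatured collagen, was not in the rule. It was given beforehand as a marker of these cells, with earlier results of these data known. Its level is thus a description and no separate check. Mmp2 stood at 161 against 49.9 CPM, a ratio of 3.22 (2.17 to 4.62) on day 4 and 468 against 148 CPM, a ratio of 3.17 (2.79 to 3.58) on day 7. The gap was smaller among Acta2-low cells. Against Acta2-low others the log2 ratio was 0.75 on day 4 and 0.42 on day 7, in place of 1.67 and 1.66. Mmp2 UMIs were seen in 23 of 51 day 4 members (45.1%) against 13.0% of other cells. After every cell was thinned to 1500 UMIs these shares were 20% and 6.26%. The matrix metalloproteinases and their inhibitors as a list had 2 of 10 compared genes past 2-fold higher and 2 lower on day 4, and 2 of 10 higher and 0 lower on day 7, with medians of 0.08 (0.23 with genes at 0 UMIs set at 3 counts) and 0.31. None of 8 and 9 compared genes of the list was past 2-fold against Acta2-low others.

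The 10 genes outside the rule that were most raised on both days among those with at least 100 CPM were Defb19, Slc38a5, Agt, Cyp11a1, Adh1, Mt2, Htra3, Sepp1, Smoc2 and Entpd2. Defb19, a beta-defensin made in the testis, was at 306 against 7.69 CPM, a ratio of 39.8 (28.2 to 55.5) on day 4 and 127 against 8.93 CPM, a ratio of 14.3 (10.5 to 19.3) on day 7. Slc38a5 moves glutamine and other neutral amino acids across the cell membrane, and its levels were 202 against 8.25 CPM on day 4 and 159.5 against 11.7 CPM on day 7. Agt, the precursor of the angiotensins, had ratios of 8.52 (6.14 to 11.6) and 10.5 (7.91 to 13.8). Adh1 oxidises alcohols, retinol among them. It was at 254 against 13.9 CPM and 227 against 35.1 CPM on the 2 days. Sepp1 encodes the selenium transport protein of plasma and showed nearly the same ratio on both days, 5.30 (4.32 to 6.45) and 5.74 (5.12 to 6.42). Entpd2 breaks down extracellular ATP, and Htra3 is a secreted serine protease. Their ratios were 4.99 and 5.72 on day 4 and 6.64 and 17.6 on day 7. With at least 5 UMIs and 20 per 10000 asked of the sum, the day 4 log2 ratio of Entpd2 turned to −0.58.

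Several of these day 4 levels leaned on 1 cell or on the few members with Cyp11a1, which are described further below. A single cell held 38 of 59 day 4 Defb19 UMIs, 31 of 47 of Agt and 25 of 49 of Adh1. Without members with a Cyp11a1 UMI, day 4 levels were 62.0 CPM for Defb19, 75.7 for Agt and 62.0 for Adh1, and Adh1 on day 7 was at 82.1. The choice of other cells mattered as well. Against Acta2-low others, Adh1 on day 7 had a ratio of 1.09 (0.895 to 1.33), which is not past 2-fold, and Cyp11a1 1.23 (1.03 to 1.46). Defb19 had 2.47 (1.80 to 3.39) and Slc38a5 4.01 (2.91 to 5.56) in that comparison.

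**Figure D2:**
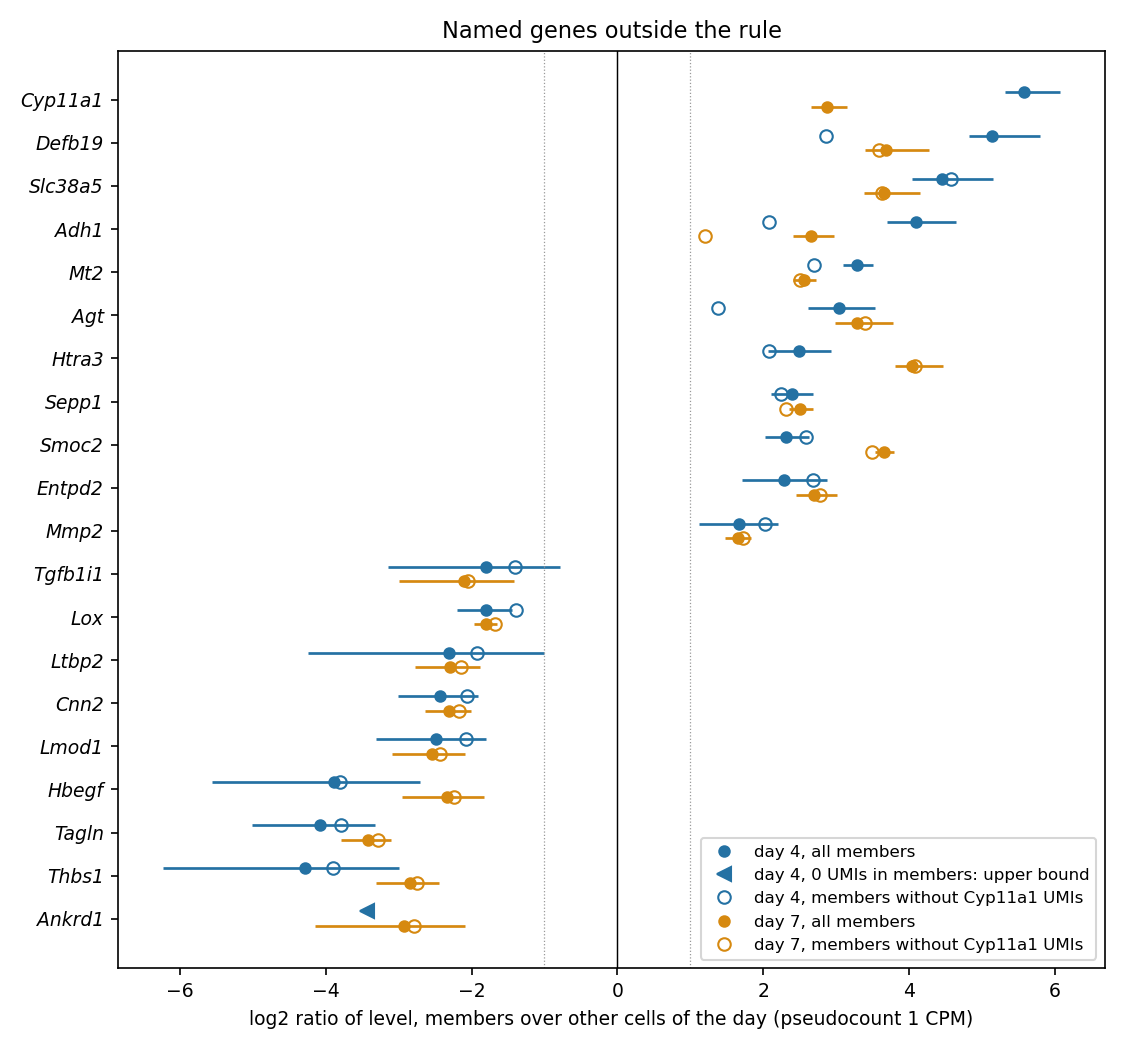
Log2 ratio of the level in members over the other cells of the day, with a pseudocount of 1 CPM, for Mmp2 and 19 of the 20 genes named by size outside the rule, on day 4 (blue) and day 7 (orange). Filled points are all members with counting intervals at 95%, open points leave out members with a Cyp11a1 UMI and keep the other cells unchanged, the triangle is the upper bound for Ankrd1, which had 0 UMIs in day 4 members, and dotted lines mark 2-fold, which every filled point lies beyond.

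Among the 10 most lowered genes with at least 100 CPM, most belong to the actin apparatus or to the response to tension and TGF-beta. Tagln, an actin-binding protein of smooth muscle, was at 67.4 against 1155 CPM, a ratio of 0.0583 (0.0310 to 0.0998) on day 4 and 109 against 1177 CPM, a ratio of 0.0925 (0.0722 to 0.117) on day 7. Lmod1, which starts actin filaments in smooth muscle, was at 82.9 against 469 CPM and 53.7 against 319 CPM, and Cnn2, a calponin, at 150.2 against 812 CPM and 130.4 against 648 CPM. Over the contractile list without Acta2, 18 of 22 compared genes were at least 2-fold lower on day 4 with a median log2 ratio of −1.69, and 19 of 22 on day 7 with a median of −1.60 (−1.47 with genes at 0 UMIs set at 3 counts). The median over all compared genes was −0.10 and −0.06. Des was the 1 gene of the list past 2-fold in the other direction, on day 4, from 2 UMIs. Vcl, which anchors actin at adhesions, had 0 UMIs in day 4 members, where the other cells had 186 CPM, and 46.0 against 144 CPM on day 7. Tropomyosin 1 was among the most abundant genes of the list and was at 1445 against 5268 CPM and 1664 against 3775 CPM.

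The Acta2 limit chose cells on a gene of the same apparatus. Against Acta2-low others the contractile median was −0.80 on day 4, with 8 of 18 genes past 2-fold lower, and −0.55 on day 7, with 2 of 18. Acta2 itself was still lower in members there, with log2 ratios of −0.77 and −0.72, so its level was not matched. Tagln had log2 ratios of −1.77 and −1.25 in that comparison, in place of −4.08 and −3.42, and on day 7 Cnn2 had −0.41 and Lmod1 −0.86, neither past 2-fold. The summed contractile genes made up a median of 78.3 per 10000 UMIs in single day 4 members against 204 in other cells, and 61.5 against 155 on day 7.

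Genes that tension, YAP and TGF-beta signalling are known to raise were low as a group. Of the 8 in the list of CCN and related genes, 7 were at least 2-fold lower on either day, with medians of −2.75 on day 4 (−2.26 with genes at 0 UMIs set at 3 counts) and −1.54 on day 7 (−1.38). Ctgf, the connective tissue growth factor, was at 487 against 2707 CPM and 548 against 1545 CPM. Thbs1, which activates latent TGF-beta, differed more, at 20.7 against 424 CPM, a ratio of 0.0489 (0.0133 to 0.125) on day 4 and 70.5 against 513 CPM, a ratio of 0.137 (0.101 to 0.184) on day 7. Ankrd1 is a nuclear target of YAP. It had 0 UMIs in day 4 members against 177 CPM, a log2 ratio of at most −3.43 with 3 counts as the floor, and 13.8 against 112 CPM on day 7. Among Acta2-low cells 6 of 8 of the list were past 2-fold lower on day 4, with a median of −2.09 (−1.53 with the genes at 0 UMIs set at 3 counts), and 5 of 7 on day 7, with a median of −1.24. Hbegf, a growth factor for the EGF receptor, Ltbp2, a microfibril protein, and Tgfb1i1, an adhesion protein, were also among the most lowered. Their ratios on day 4 were 0.0653, 0.194 and 0.281, from 5, 4 and 7 member UMIs, and on day 7 0.194, 0.201 and 0.226. Against Acta2-low others Tgfb1i1 had 0.534 (0.210 to 1.14) and 0.649 (0.341 to 1.16), and Ltbp2 0.616 (0.162 to 1.67) on day 4, none past 2-fold and each with an interval that holds 1, while Ltbp2 on day 7 had 0.223 (0.160 to 0.305).

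Matrix genes were split by kind. The fibrillar collagens and their partners were mixed, with 1 of 21 past 2-fold higher and 5 of 21 lower on day 4, a median of −0.57, and 4 of 21 higher and 4 of 21 lower on day 7, a median of 0.15. Col1a1 was at 534 against 793 CPM and 1289.8 against 1139.6 CPM, and Col3a1 at 6103 against 4542 CPM and 7494 against 3438 CPM. Lox, which crosslinks collagen and elastin, was lower at 316 against 1107 CPM and 557 against 1947 CPM, and Postn, a matricellular protein of remodelling tissue, at 36.3 against 137 CPM and 149 against 467 CPM. Of the collagens and partners, 1 of 20 were past 2-fold higher and 1 lower on day 4 in the comparison with Acta2-low others, and 1 of 20 higher and 3 lower on day 7. Lox on day 4 was not past 2-fold against Acta2-low others, with a log2 ratio of −0.88. Elastin itself went the other way. Eln was at 139.9 against 42.1 CPM, a ratio of 3.32 (2.17 to 4.89) on day 4 and 309.8 against 50.7 CPM, a ratio of 6.10 (5.17 to 7.18) on day 7.

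Small proteoglycans and calcium-binding matrix proteins had 6 of 12 genes past 2-fold higher and 1 lower on day 4 with a median of 0.89, and 7 of 11 higher and 0 lower on day 7 with a median of 1.99. Decorin, which coats collagen fibrils, was at 1394 against 609 CPM, a ratio of 2.29 (2.02 to 2.58) on day 4 and 1440.1 against 304 CPM, a ratio of 4.74 (4.40 to 5.10) on day 7. Smoc2, a secreted modulator of growth factor signalling, was at 513 against 102 CPM, a ratio of 5.03 (4.06 to 6.17) and then 1328 against 104 CPM, a ratio of 12.7 (11.6 to 13.9). Matrix Gla protein, an inhibitor of calcification, was the most abundant of the list in day 7 members at 3061 against 709 CPM, after 1767 against 1081 CPM on day 4. Ogn and Lum, both of the decorin family, had ratios of 4.87 and 2.84 on day 4 and 12.9 and 5.70 on day 7. Against Acta2-low others the list had 3 of 11 past 2-fold higher and 0 lower on day 4 (median 0.49), and 6 of 10 higher and 0 lower on day 7 (median 1.36). Decorin on day 4 was not past 2-fold there, with a log2 ratio of 0.41.

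Secreted defence proteins were higher too. Of the complement and acute-phase genes compared, 13 of 13 were at least 2-fold higher on day 4 (median 1.57) and 8 of 11 on day 7 (median 2.44). Against Acta2-low others the list had 4 of 10 past 2-fold higher and 0 lower on day 4 (median 0.90), and 7 of 10 higher and 0 lower on day 7 (median 1.46). With barcode sets summed, 11 of 13 were past 2-fold higher and 2 lower on day 4, where counts were small. C3, the central complement component, had 8 UMIs in day 4 members, at 41.4 against 13.9 CPM, and 37 on day 7, at 56.7 against 10.8 CPM, a ratio of 5.23 (3.52 to 7.63). Its day 4 log2 ratio turned to −0.54 without Apoe in the sum and to −0.46 with at least 5 UMIs and 20 per 10000. C4b and C7, which act before and after C3, were at 56.7 against 4.74 CPM and 89.0 against 6.38 CPM on day 7. Serping1, the inhibitor of the first complement enzymes, was at 503 against 248 CPM and 702 against 129 CPM, and Serpina3n, an acute-phase protease inhibitor, at 109 against 36.0 CPM and 409 against 60.6 CPM.

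Most lysosomal genes were higher in members, many of them by less than 2-fold. On day 4, 24 of 24 compared genes had a log2 ratio above 0 and 10 were at least 2-fold higher, with a median of 0.91. On day 7 the numbers were 24 of 25 and 7, with 1 past 2-fold lower and a median of 0.77. Of all compared genes, 5360 of 11695 had a log2 ratio above 0 on day 4 and 5393 of 11745 on day 7. In single cells the list made up a median of 109 per 10000 UMIs in day 4 members against 57.8, and 141 against 89.7 on day 7. The highest day 4 member stood at 463 per 10000, where the upper quartile of members was 137. How far the day 4 sums of lysosomal genes leaned on that cell was not tested. Cathepsin L, a cysteine protease, was at 5595 against 831 CPM, a ratio of 6.74 (6.32 to 7.17) on day 4 and 1896 against 1113 CPM, a ratio of 1.70 (1.61 to 1.81) on day 7. Legumain, which activates cathepsins, was at 456 against 68.0 CPM and 261 against 86.1 CPM. Ctss, the cathepsin of macrophages and dendritic cells, had 0 UMIs in members of both days. The list had, against Acta2-low others, 7 of 24 past 2-fold higher and 0 lower on day 4 (median 0.79), and 1 of 25 higher and 1 lower on day 7 (median 0.30).

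Metallothioneins, which bind zinc and copper, were among the most abundant raised genes. Over the list of metal-handling genes, 4 of 8 were past 2-fold higher and 1 lower on day 4, and 3 of 7 higher and 0 lower on day 7. Mt1 was at 3865 against 505 CPM, a ratio of 7.66 (7.09 to 8.26) on day 4 and 2397 against 749.8 CPM, a ratio of 3.20 (3.03 to 3.38) on day 7, and Mt2 at 1139.8 against 115 CPM and 682 against 115 CPM. In the members without a Cyp11a1 UMI, Mt1 was at 2382 CPM on day 4, and against Acta2-low others its day 7 ratio was 1.78 (1.67 to 1.90), not past 2-fold. Ceruloplasmin, a copper ferroxidase, was at 477 against 146 CPM and 360.4 against 78.4 CPM. Few other genes of oxidant defence were past 2-fold. Of 22 antioxidant and selenoprotein genes outside the rule, 2 were past 2-fold higher on day 4, Sepp1 and Sod3, and 1 on day 7, Sepp1, with a median log2 ratio of 0.09 on either day. Gpx1, the cytosolic glutathione peroxidase, was at 907 against 1242 CPM and 827 against 1266 CPM. Sod3, the extracellular superoxide dismutase, was at 155 against 49.9 CPM and 107 against 55.9 CPM. Of the glutathione transferases, 4 of 13 were past 2-fold higher and 0 lower on day 4 (median 0.79), and 4 of 13 higher and 2 lower on day 7 (median 0.64), and Gsta2 of that family was at 321 against 40.8 CPM and 56.7 against 13.3 CPM. The transferases had, against Acta2-low others, 4 of 11 past 2-fold higher and 0 lower on day 4 (median 0.70), and 1 of 12 higher and 0 lower on day 7 (median 0.35).

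Of the genes that handle cholesterol and lipoproteins, 3 of 12 were at least 2-fold higher on day 4 and 5 of 12 on day 7, and none was past 2-fold lower. Abca1, which loads lipid onto apolipoproteins, was at 373 against 65.2 CPM, a ratio of 5.72 (4.43 to 7.29) on day 4 and 155 against 62.1 CPM on day 7. Cyp27a1 oxidises cholesterol, and it was at 139.9 against 13.7 CPM and 55.2 against 15.9 CPM. Npc1, of lysosomal cholesterol export, was not past 2-fold, at 26.1 against 27.5 CPM on day 7. In the insulin-like growth factor list, 6 of 12 genes were past 2-fold higher and 1 lower on day 4, and 6 of 12 higher and 0 lower on day 7. Igfbp4, a binding protein, was at 238 against 114 CPM and 319 against 49.7 CPM, and the ligand Igf2 at 57.0 against 8.81 CPM and 42.9 against 6.47 CPM. Igf1 was abundant in both groups and not past 2-fold, at 889.5 against 741 CPM on day 7. The choice of other cells changed these lists. Compared with Acta2-low cells, the lipid list had 3 of 11 past 2-fold higher and 1 lower on day 4 (median −0.08), and 2 of 12 higher and 1 lower on day 7 (median 0.28). The growth factor list had 4 of 12 past 2-fold higher and 1 lower on day 4 (median 0.42), and 4 of 12 higher and 0 lower on day 7 (median 0.49).

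Genes that come up early in the Leydig lineage were higher without exception among those compared, 14 of 14 on day 4 with a median of 2.84 and 14 of 14 on day 7 with a median of 2.36. Aldh1a1 makes retinoic acid and was the most abundant, at 3627 against 501 CPM, a ratio of 7.24 (6.68 to 7.83) on day 4 and 1317 against 386 CPM, a ratio of 3.41 (3.17 to 3.67) on day 7. Akr1cl, an aldo-keto reductase of Leydig cells, was at 2373 against 334 CPM and 1038 against 249 CPM. Ptgds, which makes prostaglandin D2, was at 275 against 2.64 CPM and 84.4 against 7.74 CPM, with 40 of 53 and 35 of 55 UMIs in 1 cell. Of these, Aldh1a1 and Akr1cl on day 7 were not past 2-fold against Acta2-low others, with ratios of 1.71 (1.56 to 1.86) and 1.76 (1.59 to 1.95). In that comparison 13 of 14 of the list were past 2-fold on day 4 (median 2.35) and 6 of 14 on day 7 (median 0.94). Of steroidogenic genes, 8 of 9 were past 2-fold higher and 0 lower on day 4 (median 3.06), and 6 of 10 higher and 1 lower on day 7 (median 1.35). Against Acta2-low others they had 7 of 9 past 2-fold higher and 0 lower on day 4 (median 2.07), and 0 of 9 higher and 2 lower on day 7 (median 0.22), so the day 7 difference was not seen there. Cyp11a1, the side-chain cleavage enzyme, was at 569.9 CPM on day 4, a ratio of 51.9 (40.0 to 67.2), and 311 against 41.6 CPM, a ratio of 7.48 (6.31 to 8.84) on day 7. The day 7 log2 ratio turned to −0.12 with the rule on thinned counts. Star was at 565 against 191 CPM and 546 against 351 CPM, and its day 4 log2 ratio turned to −0.15 without members with a Cyp11a1 UMI. Insl3, a peptide hormone of Leydig cells, was at 124 against 1.52 CPM and 55.2 against 5.01 CPM. Cyp17a1, which takes the path on to androgens, had 0 UMIs in members of both days, a limit of 3 counts in 193017 and 652020 UMIs.

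The steroidogenic values came from few cells. A Cyp11a1 UMI was seen in 9 of 51 members on day 4 (17.6%) and in 10 of 126 on day 7 (7.94%), against 0.512% and 1.86% of other cells, and after thinning in 12.5% and 7.21% against 0.229% and 1.35%. The split of members by Cyp11a1 was made after the values were seen. The 9 cells of day 4 came from 4 barcodes or barcode sets and held 24.8% of the member UMIs, and the 10 of day 7 came from 8. Members held 44.5% of all Cyp11a1 UMIs of the day 4 library and 30.8% on day 7. Their make-up differed from that of the other members in more than steroid genes. On day 4 the cells with Cyp11a1 had Aldh1a1 at 9106 CPM against 1824 in the members without, and decorin at 314 against 1749. Hsd3b1, which forms progesterone, was at 1528 against 0 CPM, Star at 1758 against 172, and Mgp at 126 against 2306. The deep day 4 cell with 200 Gpx3 UMIs was among them, with 49 Cyp11a1 UMIs and 0 of decorin, and so was a set of 4 barcodes with 54 Cyp11a1 UMIs and 0 of decorin.

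On day 7 the cells with Cyp11a1 differed from the other members in part as on day 4. Decorin was at 416 against 1558 CPM, Aldh1a1 at 3078 against 1115 and Hsd3b1 at 476 against 1.71, but Smoc2 was at 2572 against 1185. These sums pool unlike cells. The barcodes with 69, 41 and 56 Cyp11a1 UMIs, the first 2 of 1 set, held 0 UMIs of decorin, Smoc2 and Gpx3. Those with 20 to 47 Smoc2 UMIs held 1 to 15 UMIs of Cyp11a1. Gpx3 in day 4 members without Cyp11a1 was at 386 CPM. Cells with a Cyp11a1 UMI were then left out of members and others alike, and Cyp11a1 out of the lists, which left 42 members and 2914 others on day 4 and 116 and 2007 on day 7. The steroidogenic list had 2 of 5 compared genes past 2-fold higher on day 4 (median 0.60) and 2 of 6 on day 7 (median 0.82). The early Leydig list kept all 14 genes past 2-fold on both days, with medians of 2.30 and 2.61. The contractile medians were −1.63 and −1.53 (−1.39 on day 7 with genes at 0 UMIs set at 3 counts).

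**Figure D3:**
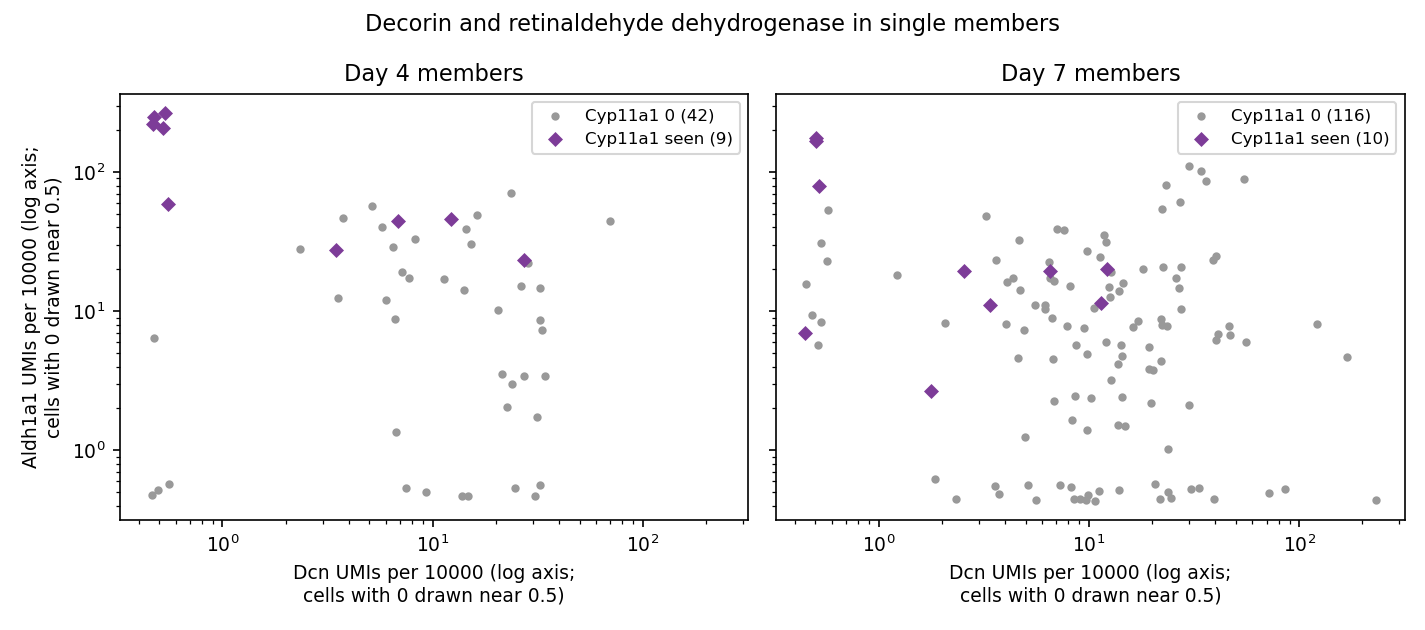
Each point is a member of day 4 (left) or day 7 (right), with decorin (Dcn) UMIs per 10000 on the horizontal log axis and Aldh1a1 UMIs per 10000 on the vertical log axis. Purple diamonds are the 9 and 10 members with a Cyp11a1 UMI, grey points the 42 and 116 without, and cells with 0 UMIs are drawn with small scatter near 0.5. Of the purple points, 5 on day 4 lie at 0 decorin with high Aldh1a1.

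The 3 sets of genes known from adult testis stroma that were fixed as lists were also read in members. Of genes of the Tcf21-positive interstitial cells, 12 of 24 were at least 2-fold higher on day 4 (median 0.88) and 16 of 24 on day 7 (median 1.57), with 1 lower on either day. Of adult Leydig genes, 16 of 19 and 13 of 19 were higher and 0 and 1 lower, with medians of 3.05 and 1.77 that stood at 1.22 and 1.46 with Cyp11a1 cells left out of both groups. Compared with Acta2-low others, 17 of 19 of them were past 2-fold higher on day 4, but on day 7 only 2 of 17, with 2 lower and a median of 0.54. Of adult peritubular myoid genes, 12 of 19 and 7 of 19 were lower and 1 and 0 higher, and 4 of 15 and 1 of 13 against Acta2-low others. The Tcf21-positive set had 8 of 24 past 2-fold higher and 0 lower on day 4 (median 0.42), and 11 of 24 higher and 0 lower on day 7 (median 0.74) in that comparison. These sets share genes with the lists above, so they are no separate measurement. Of genes of stromal progenitors, 8 of 19 were past 2-fold higher and 3 lower on day 4 (median 0.92), and 8 of 18 higher and 2 lower on day 7 (median 0.83). Compared with Acta2-low others, they had 4 of 17 past 2-fold higher and 2 lower on day 4 (median 0.33), and 5 of 17 higher and 1 lower on day 7 (median 0.53). Pdgfra, the receptor for PdgfAA, was at 212 against 106 CPM on day 4 and 224 against 55.9 CPM, a ratio of 4.01 (3.32 to 4.81) on day 7. Ly6a, which encodes the sorted Sca1 antigen, was at 979 against 516 CPM and 337 against 47.9 CPM, and Thy1 at 5.18 against 27.9 CPM and 1.53 against 32.4 CPM. Tcf21, a transcription factor of stromal progenitors, was seen in 10 of 51 members on day 4 (19.6%) against 10.2% of other cells and in 14 of 126 on day 7 (11.1%) against 184 of 2045. The thinned shares were 12.5% against 4.21% and 1.80% against 4.11%, so the day 7 order was not kept. Thinning also left out cells under 1500 UMIs, 15 of the 126 members and 414 others on day 7, so the reason for this cannot be told apart. Star with Cyp11a1, Cyp17a1, Hsd3b1 and Hsd3b6 all at 0 was found in 10 day 4 members (19.6%) against 30.3% of other cells and in 52 on day 7 (41.3%) against 44.8%.

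The Hedgehog agonist SAG was in both media. Of 8 Hedgehog genes compared, 0 were past 2-fold higher and 3 lower on day 4 (median −0.01, or 0.11 with genes at 0 UMIs set at 3 counts). On day 7, 3 were higher and 0 lower (median 0.73). The lower and upper interval limits of these genes had medians of −0.14 and 1.74 on day 7. Ptch1, a receptor that the pathway induces, was at 58.3 against 20.1 CPM on day 7, and Hhip, an induced antagonist, at 18.4 against 2.73 CPM. On day 4 Ptch1 was at 31.1 against 36.6 CPM and Hhip had 0 UMIs. Of interferon-stimulated genes, 5 of 14 were past 2-fold lower on day 4, where 24.1% of all compared genes were, and 6 of 14 on day 7, where 9.42% were, with 0 and 1 past 2-fold higher. Against Acta2-low others it was 6 of 14 on day 4 and 0 of 6 on day 7, with a day 7 median of −0.13. Irgm1, an interferon-induced GTPase, was at 98.4 against 374 CPM and 70.5 against 176 CPM, whereas Ly6e was at 808 against 514 CPM and 590.5 against 269 CPM. Of 5 Notch genes, 3 were past 2-fold lower on day 4 (median −1.52, or −0.84 with genes at 0 UMIs set at 3 counts) and 1 on day 7 (median −0.01). Of 10 FGF feedback genes, 3 were lower and 1 higher on day 4 (median −0.85, or −0.40), and 2 lower and 0 higher on day 7 (median −0.27). Against Acta2-low others 4 of 7 were lower on day 4 (median −1.12, or −0.70) and 2 of 9 on day 7 (median −0.52). Chemokine, Wnt and immediate-early lists had medians of 0.16, −0.21 and −0.44 on day 4 and −0.34, 0.25 and −0.31 on day 7. With genes at 0 UMIs set at 3 counts, the day 4 Wnt median was 0 and the immediate-early medians were −0.26 and −0.25. Against Acta2-low others the day 4 chemokine median was −0.38 and the Wnt medians were 0.96 and −0.33, so these signs were not kept. At equal weight of cells the day 4 chemokine median was 1.38.

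Genes of cell division were read in summed counts and in single cells. On day 4 all 14 mitosis genes were at least 2-fold lower in members (median −2.37, or −2.30 with genes at 0 UMIs set at 3 counts) and 11 of 13 replication genes were (median −1.76, or −1.27). On day 7 none of either list was past 2-fold, and the medians were −0.48 and −0.11. Top2a, which untangles DNA before mitosis, was at 25.9 against 126 CPM on day 4 and 118 against 119.9 CPM on day 7. Summed over the list, mitosis genes were at 233 CPM in day 4 members against 1259 in others, and at 825 against 1151 on day 7. These values depended on how cells were weighted and compared. With every cell at equal weight, 6 of 14 mitosis genes were past 2-fold lower on day 4 and 4 on day 7, with a median of −0.80 on either day, so the medians of the days were alike there. Replication genes at equal weight had 8 of 13 lower on day 4 (median −1.06) and 0 on day 7 (median −0.24). Without members with Cyp11a1, 12 of 14 mitosis genes were past 2-fold lower on day 4 and 6 on day 7 (day 7 median −0.90). Against Acta2-low others the medians were −2.49 on day 4 and 0.32 on day 7, where 12 of 14 genes had a log2 ratio above 0. Mki67 or Top2a was seen in 2 of 51 day 4 members (3.92%, 0.478 to 13.5) against 18.4% of other cells, and in 16 of 126 on day 7 (12.7%, 7.44 to 19.8) against 20.7%. Of 10 genes that brake the cycle or regulate its entry, 2 were past 2-fold higher and 5 lower on day 4, and 2 and 3 on day 7. Ccnd2, a D-type cyclin, was at 176 against 517 CPM and 509 against 974 CPM.

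Markers of other cell types were read as summed levels in members and others. The 14 macrophage genes were at 5.18 against 13.9 CPM on day 4 and 10.7 against 30.8 on day 7. Members held 1 UMI on day 4, of Aif1, and 7 UMIs over 3 genes on day 7, led by Csf1r, and C1qa, C1qb, C1qc, Ptprc and Adgre1 were at 0 on both days. Lyz2 had 0 UMIs on day 4 and 1 on day 7. Endothelial genes summed to 104 CPM in day 4 members against 97.1 in others and to 113 against 126 on day 7, most of it Cdh5, with Vwf, Tie1, Flt1 and Cldn5 at 0. Sertoli genes summed to 72.5 against 54.4 CPM and 64.4 against 52.3, led by Aard on day 4 and Sox9 on day 7, with Amh and Rhox5 at 0. Pericyte genes were lower, at 20.7 against 123 CPM and 39.9 against 138, most of it Cspg4, with Rgs5 at 0. Germ cell genes summed to 10.4 against 139.9 CPM on day 4 and 35.3 against 24.0 on day 7. The day 4 sum was 2 UMIs, and Tnp1 was the most abundant on day 7 with 7 of 23. Mesothelial and epithelial genes summed to 77.7 against 8.17 CPM on day 4, from 15 UMIs in 2 members, led by Krt18. On day 7 they summed to 12.3 against 3.46, in 4 members and led by Msln, with Epcam and Cdh1 at 0 on both days. Adipocyte genes summed to 15.5 against 4.89 CPM on day 4, from 3 UMIs led by Fabp4, and to 13.8 against 4.46 on day 7, from 9 led by Plin1, with Adipoq at 0. The part of these cells in the results was not tested. Malat1 and 3 other nuclear RNAs summed to 13424 against 5345 CPM on day 4, and to 9483 against 6885 on day 7, most of it Malat1. Of the 4, 2 were past 2-fold higher on day 4 (median 1.03) and 0 on day 7 (median 0.37), and in the comparison with Acta2-low others 2 on day 4 (median 0.96) and 0 on day 7, where 3 lay below 0 (median −0.06). Their part in the results was not tested.

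The likeness among members was read without the 5 genes of the rule. In principal components of 2000 variable genes without the rule genes, the 20 nearest neighbours of a cell, barcodes of its own set left out, were members in 24.1% of cases on average for day 4 members and in 0.775% for other cells, where the library held 1.71%. On day 7 the means were 38.3% and 2.35%, with 5.80% in the library. Members are Acta2-low by choice, and the components keep contractile genes that go with Acta2, so a count over Acta2-low neighbours only was added after the data were seen. Of those, 35.1% were members for day 4 members and 8.74% for Acta2-low others, where members made up 9.68% of Acta2-low cells. On day 7 it was 54.0% and 17.3%, where they made up 23.2%. The likeness was uneven. At least 50% of the neighbours were members for 5 of 51 day 4 members and 45 of 126 on day 7, and 10 and 7 members had no member among their neighbours. These components hold the steroidogenic, matrix and contractile genes described above, so the shares describe the same cells again.

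Cells under the same rule on day 14 had higher levels of Leydig genes, and so did the day 14 cells outside the rule. Steroidogenic genes summed to 9243 CPM in the former and 9186 in the latter, Cyp11a1 was at 2021 and 2299 CPM, and Insl3 at 1839 and 1667. The difference from the earlier days was thus seen in the whole day 14 library. Depth per cell was like that of the earlier members, with a median of 3590 UMIs. Levels in this comparison are given in the order of days 4, 7 and 14. Among genes outside the rule with at least 100 CPM, 10 were most raised over members of both earlier days. They were Cyp17a1, Cst8, Serpina5, Insl3, Susd3, Gsta4, Serpina3c, Fabp3, Serpina3m and Ptgds. Cyp17a1 went from 0 UMIs on days 4 and 7 to 897 CPM. Insl3 was at 124, 55.2 and 1839 CPM, and Cyp11a1 at 569.9, 311 and 2021 CPM. Without the Cyp11a1 cells of each day, Insl3 was at 6.88 CPM on day 4, from 1 UMI, at 20.5 on day 7, from 12, and at 778 on day 14. Fabp3, a fatty acid carrier, was at 114, 85.9 and 846 CPM. Nr5a1, the steroidogenic factor that switches these genes on, was at 20.7, 41.4 and 133 CPM, and Sepp1 at 565, 639.6 and 2886 CPM. Of the genes of the rule, Gpx3 was at 1539, 1077 and 915 CPM. Its day 4 value was 567 CPM without the 1 cell with 200 UMIs and 386 without the Cyp11a1 cells, both below the day 14 level. Without the day 14 cells with Cyp11a1, that level was 1065 CPM. Apoe was at 1233, 1373 and 2649 CPM and Acta2 at 93.3, 87.4 and 11.7 CPM.

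Genes outside the rule with at least 100 CPM were ranked by their fall from the earlier members to day 14. The 10 most lowered of these were Prss23, Plac8, Cilp, Lbh, Fbln2, Lox, Ifi27l2a, Mfap5, the pseudogene Rps13-ps1 and Lgals3. Reads of Rps13-ps1 cannot be told apart with certainty from those of its parent gene. Cilp, a matrix protein first known from cartilage, was at 202, 376 and 23.6 CPM. Fbln2 and Mfap5, both of elastic microfibrils, were at 653, 594 and 113 CPM and at 321, 149 and 30.6 CPM. Tagln, under 100 CPM in day 4 members and so not ranked, was at 67.4, 109 and 3.23 CPM. Its log2 ratios of day 14 over days 4 and 7 were −4.01 and −4.70. Decorin, raised in early members, was at 1394, 1440.1 and 1083 CPM, within 2-fold of its day 14 level on both days. Mt1 was at 3865, 2397 and 3817 CPM, and at 2382, 2206 and 3181 CPM without the Cyp11a1 cells of each day. Smoc2 was at 513, 1328 and 1182 CPM, so that day 7 but not day 4 was near the day 14 level. Aldh1a1 was at 3627, 1317 and 3686 CPM, and at 1824, 1115 and 2470 CPM without the Cyp11a1 cells of each day. Tcf21 was lower on day 14, at 82.9, 36.8 and 15.4 CPM.

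Promoters of the rule's genes were read because the rule set an upper limit for Acta2, a gene that serum response factor is known to regulate, and lower limits for the others. RefSeq promoters of 300 bases were matched for 4 of the 5 genes, and Lbp had no entry. They were searched on both strands for the CArG box, to which serum response factor binds. The strict box was found in 535 of 32851 promoters of this length (1.63%), and a form with G or C allowed at 1 of the 6 middle bases in 3280 (9.98%). The Selenbp1 promoter (chr3:94932833-94933132, plus strand, build GRCm38.p6) held 1 strict match at bases 10 to 19. The Acta2 promoter (chr19:34255324-34255623, minus strand) held the relaxed form at bases 167 to 176 and 217 to 226. Capitals mark these matches, 5′ to 3′ on the strand of the gene.
Selenbp1: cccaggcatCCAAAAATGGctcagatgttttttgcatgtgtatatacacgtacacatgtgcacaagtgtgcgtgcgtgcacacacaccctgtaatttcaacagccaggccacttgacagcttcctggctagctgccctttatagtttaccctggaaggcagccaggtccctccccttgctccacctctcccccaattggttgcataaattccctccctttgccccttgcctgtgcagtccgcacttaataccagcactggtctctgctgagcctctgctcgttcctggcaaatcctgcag
Acta2: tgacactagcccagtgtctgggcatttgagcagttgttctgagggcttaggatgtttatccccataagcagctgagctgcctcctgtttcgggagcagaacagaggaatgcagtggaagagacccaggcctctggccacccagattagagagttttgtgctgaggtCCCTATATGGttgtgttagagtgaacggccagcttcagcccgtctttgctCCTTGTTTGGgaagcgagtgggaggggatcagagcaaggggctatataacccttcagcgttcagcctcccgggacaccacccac
The Gpx3 promoter (chr11:54902604-54902903, plus strand) held neither form. Of 3 Apoe promoters, 1 (chr7:19699139-19699438, minus strand) held the relaxed form at bases 196 to 205, as Acta2 did. A match describes letters in a window, and binding was not measured.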

How the data were processed

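Single-cell RNA was measured by Drop-seq in 1 library each of days 4, 7 and 14. The deposited values are counts of UMIs per gene and cell, not normalized. Per the submitters' processing notes the authors used STAR 2.5.2a, Picard 2.6.0, SAMtools 1.2 and build GRCm38, while the paper's methods name another STAR release. The merged table of all days was used, with 24698 genes. It matched the table of each day in every shared entry, and the fewest genes in a cell were 501 and the highest mitochondrial share was 9.93%. Its 495 columns of cells that belong to none of the samples used were left out.

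The members and gene lists were chosen with earlier results of these data known. UMIs were summed over members and over other cells of a day and scaled to CPM, with Poisson limits at 95% computed exactly. Conditional intervals were used for ratios, Clopper-Pearson intervals for shares, and a floor of 3 counts where 0 were seen. Log2 ratios use a pseudocount of 1 CPM, and genes with at least 20 UMIs were compared. Genes of the rule were taken out of every list. Named genes were members of the lists, and the 10 largest and 10 smallest log2 ratios outside the rule, by the smaller of the days' absolute values, among genes with at least 100 CPM and the same side on both days. Which list genes to name was decided after their values were seen. Shares were also computed on counts thinned to 1500 UMIs a cell, which left out 1361 cells. No doublets were removed, and removing the 6% of cells with the highest Scrublet scores was an alternative. The rule without Apoe, without Gpx3, with stricter or no limits and on thinned counts was tried, as were stricter cells, equal weights of cells, other pseudocounts and UMI minimums, and cells without division genes. Added after the data were seen were summed barcode sets, members without Cyp11a1, Cyp11a1 cells left out of members and others with Cyp11a1 out of the lists, counts over Acta2-low neighbours, the day 4 member with most Gpx3 left out, others limited to Acta2-low cells, and an interval without 1. Computation was tested on simulated data. Python 3.11.15, numpy 2.4.6, scipy 1.17.1, pandas 2.3.3, scikit-learn 1.9.0, scanpy 1.11.5 and matplotlib 3.10.9 were used with seed 1.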

Additional observations from a re-analysis of the deposited data

Results flagged for a closer look

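Among listed genes, 6 had counting intervals of the ratio of members over others that left out 1 on opposite sides on days 4 and 7, with at least 1 day past 2-fold. This size limit was set after a stricter form, past 2-fold on both days, had given no gene. The difference between the days was not tested. The log2 ratio of clusterin (Clu), a secreted chaperone, was 2.04 on day 4 and −0.33 on day 7, and that of Lgals3, a galectin, 1.41 and −0.42. The chemokine Cxcl14 had −1.65 and 0.42, and Timp3, an inhibitor of matrix metalloproteinases, −1.14 and 0.49. For Ifit3, an interferon-induced gene, the values were 0.77 and −1.74, the latter from 3 member UMIs, and for Tk1, a thymidine kinase of S phase, −1.92 and 0.64, the former from 2 member UMIs.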

How the results depend on the processing

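The shares of members, the contractile medians, the Mmp2 ratios and the numbers of genes past 2-fold gave 140 values under other settings. Of these, 101 stayed, 39 moved further and 0 turned. Staying meant lying within the counting interval of the reported share or ratio or, for numbers of genes, within 1.5 times. List medians had to lie between the medians of their genes' lower and upper interval limits. Shares and numbers of genes could not turn by the way they were labelled, so the 0 covers contractile medians and Mmp2 ratios only. For single genes and lists, 966 of 1361 stayed, 382 moved and 13 turned. A turn was counted only where the reported log2 ratio was past 2-fold. The cause of a change was not tested. Without Apoe in the sum the shares of members were 0.805% and 2.58%, 1073 genes were higher and 2193 lower on day 7, and log2 ratios were 1.19 for Mmp2 and −2.23 for Hsd3b1 on day 7, and −0.54 for C3 and −2.17 for the 1 mesothelial gene compared on day 4. Without Gpx3 the day 7 share was 3.96%. With at least 5 UMIs and 20 per 10000 the shares were 0.805% and 3.27%, 1857 genes were lower on day 7, and log2 ratios were −0.46 for C3 and −0.58 for Entpd2 on day 4 and −1.64 for Hsd3b1 on day 7. With no Acta2 limit the shares were 2.35% and 8.11% and the day 7 contractile median was −0.95. On thinned counts they were 1.21% and 3.90%, with −0.12 for Cyp11a1 and −4.49 for Hsd3b1 on day 7. With barcode sets summed, the day 7 share was 7.64%.

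Against Acta2-low others the contractile medians were −0.80 and −0.55, Mmp2 had 0.75 and 0.42, Hsd3b1 had −1.25 on day 7, and 514 and 242 of 7986 and 8635 genes were higher and 1301 and 438 lower. With every cell at equal weight Mmp2 had 2.33 and 1.46. Without cells that held division genes it had 1.41 on day 7, and the day 4 mitosis median was 0.11, as that setting fixes. Without members with Cyp11a1, others unchanged, Hsd3b1 had −2.78 and −2.84 and Star −0.15 on day 4. Numbers of higher genes on days 4 and 7 were 726 and 311 with a minimum of 100 UMIs, 2317 and 1655 with none, and 608 and 274 with a pseudocount of 10 CPM. Lower genes numbered 1432 and 568 with that minimum and 797 and 246 with that pseudocount. With an interval without 1, 729 were higher on day 4, and 528 and 498 lower. No paired analysis was possible because each day was 1 library. Summed barcode sets, Acta2-low others, members without Cyp11a1, Cyp11a1 cells left out of both groups, Acta2-low neighbours, the day 4 member with most Gpx3 left out and the interval without 1 were added after the data were seen.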
